A study of Homo sapiens with 24 samples.

Results

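The 10 genes followed here shape mitotic chromosomes: MKI67, TOP2A and the condensin genes SMC2, SMC4, NCAPD2, NCAPG, NCAPH, NCAPD3, NCAPG2 and NCAPH2. Their RNA was counted in 24 libraries. They are 10 of the 28307 genes in the deposited count table, matched by symbol. The set was chosen by its role in chromosome structure together with a readout of these data, the lower MKI67 of SUM159 cells under nifuroxazide (NIF), so that comparison is described here without a test. SUM159 cells come from a breast cancer and SW620 cells from a colon cancer. Adherent cells of each line received NIF, a nitrofuran antibiotic, or DMSO, its solvent, for 30 h and were then sorted by aldehyde dehydrogenase activity into ALDHbr (high activity) and ALDHneg (low activity) cells. Each of the 8 groups (2 lines, 2 populations, 2 treatments) had 3 libraries from independent experiments.

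Condensins are ring-shaped complexes that compact and stiffen chromosomes for division. Both kinds share the ATPase pair SMC2 and SMC4. Condensin I adds NCAPD2, NCAPG and the clasp-like kleisin NCAPH and reaches chromosomes after the nuclear envelope opens, whereas condensin II adds NCAPD3, NCAPG2 and the kleisin NCAPH2 and is nuclear throughout the cell cycle. TOP2A, the topoisomerase II of dividing cells, passes one DNA duplex through another and frees tangled sister chromatids. MKI67 encodes the Ki-67 protein, which coats mitotic chromosomes, keeps them apart and is the usual stain for cycling cells.

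The libraries held 30253187 to 43127948 counted reads, and the 10 genes together took 0.137% to 0.293% of them. Levels are given as CPM, the count of a gene relative to the TMM-scaled size of its library, with scaling done within a line. ALDH1A1, an aldehyde dehydrogenase of stem-like cells, lay at 104 to 218 CPM in SUM159 ALDHbr and 0.301 to 0.631 CPM in ALDHneg libraries. In SW620 it lay at 918 to 1357 CPM in ALDHbr and 534 to 921 CPM in ALDHneg libraries, which did not overlap within a treatment. ALDH1A3 stayed under 1 CPM in SUM159 and was lower in ALDHbr than in ALDHneg SW620 libraries under DMSO (134 to 144 against 173 to 182 CPM), so it did not follow the gate there. The 10 epithelial marker genes averaged -1.51 to 0.64 log2 CPM in SUM159 and 6.69 to 7.33 in SW620 libraries, and 10 mesenchymal ones 7.79 to 8.11 and 0.75 to 1.62.

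One property of the libraries bore on MKI67 before any comparison. The SW620 ALDHbr libraries were spread widely: MKI67 stood at 346, 703 and 431 CPM in the 3 DMSO libraries and at 410, 364 and 249 CPM in the 3 NIF libraries. In SW620 ALDHneg libraries it stood at 734, 705 and 729 CPM under DMSO and at 448, 421 and 456 CPM under NIF. The second ALDHbr DMSO library thus reached the ALDHneg level and lay above the other ALDHbr libraries. Among 6050 well expressed SW620 genes (mean log2 CPM of at least 5), 99.5% varied less than MKI67 within the ALDHbr groups under either treatment, judged by the SD of log2 CPM, against 28.4% and 74.1% in ALDHneg under DMSO and NIF.

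The MKI67 transcript is long, 12716 bases, against 3337 to 7369 for the other 9 genes. Each library's deviation from its group mean, taken over 13210 SW620 genes with a known transcript length, was ranked against that length. In SW620 ALDHbr cells the Spearman rho was -0.490, 0.595 and -0.418 in the DMSO libraries and 0.518, 0.174 and -0.556 in the NIF libraries, and in ALDHneg cells it ran from -0.303 to 0.206. MKI67 deviated upward where rho was positive and downward where it was negative in all 6 ALDHbr libraries, by -0.45, 0.58 and -0.13 log2 under DMSO and 0.30, 0.12 and -0.42 under NIF. A fit that removed each library's trend with transcript length and GC content was therefore added after the data had been seen. With it, the SD of MKI67 fell from 0.52 to 0.25 log2 CPM in ALDHbr DMSO and from 0.38 to 0.18 in ALDHbr NIF libraries. Comparisons within SW620 that rest on these libraries are given with that fit, and without the second ALDHbr DMSO and the third ALDHbr NIF library, the most deviant of their groups over all genes. Comparisons between the lines under DMSO are given with that fit and without the second ALDHbr DMSO library.

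The start regions of several of these genes carry letters by which cell-cycle genes are known to be recognised, so the 250 bases before the RefSeq start (GRCh38.p14) are shown for 5 of them: the 3 genes that lay lowest under NIF in SUM159 relative to their spread (MKI67, NCAPD2, NCAPG), TOP2A, and NCAPG2, which stayed near its control there. Capitals mark TTTGAA, the core of the cell-cycle homology region (CHR), and the CCAAT box CCAAT, each on either strand (TTCAAA and ATTGG on the other), and a run of 10 capitals in MKI67 is an overlap of both. Sequences run 5′ to 3′ on the strand of the gene.
MKI67, chr10:128126424-128126673, minus strand: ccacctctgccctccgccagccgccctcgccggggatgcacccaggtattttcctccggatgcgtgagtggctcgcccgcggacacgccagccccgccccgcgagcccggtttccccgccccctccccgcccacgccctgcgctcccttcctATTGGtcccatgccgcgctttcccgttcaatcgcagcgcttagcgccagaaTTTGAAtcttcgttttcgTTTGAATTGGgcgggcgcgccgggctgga
TOP2A, chr17:40417897-40418146, minus strand: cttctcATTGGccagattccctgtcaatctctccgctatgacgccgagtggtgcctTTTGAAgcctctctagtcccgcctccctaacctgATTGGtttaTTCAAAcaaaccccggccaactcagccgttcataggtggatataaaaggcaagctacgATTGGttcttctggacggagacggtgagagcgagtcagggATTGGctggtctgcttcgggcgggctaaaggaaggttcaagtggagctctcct
NCAPD2, chr12:6493852-6494101, plus strand: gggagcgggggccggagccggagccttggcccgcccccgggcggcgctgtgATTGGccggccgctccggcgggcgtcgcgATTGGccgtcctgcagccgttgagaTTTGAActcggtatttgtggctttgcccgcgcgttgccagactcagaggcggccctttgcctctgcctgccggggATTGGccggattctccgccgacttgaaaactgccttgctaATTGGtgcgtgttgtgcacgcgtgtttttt
NCAPG, chr4:17810729-17810978, plus strand: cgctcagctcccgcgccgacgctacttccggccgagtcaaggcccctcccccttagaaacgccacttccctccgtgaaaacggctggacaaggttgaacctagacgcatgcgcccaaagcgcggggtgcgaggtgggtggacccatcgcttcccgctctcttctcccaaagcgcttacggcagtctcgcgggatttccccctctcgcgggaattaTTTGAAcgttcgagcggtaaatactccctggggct
NCAPG2, chr7:158704805-158705054, minus strand: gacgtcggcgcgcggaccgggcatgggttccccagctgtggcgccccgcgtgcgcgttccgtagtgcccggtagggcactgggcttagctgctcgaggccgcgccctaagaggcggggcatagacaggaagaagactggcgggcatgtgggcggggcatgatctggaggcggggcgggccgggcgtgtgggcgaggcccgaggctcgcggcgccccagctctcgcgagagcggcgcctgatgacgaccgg

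In windows from 250 bases before to 50 after a start, TTTGAA occurred on either strand in 8 of the 12 windows of the 9 members with an entry, and in 15.2% of 35116 windows of all genes. CCAAT occurred in 5 of the 12 windows and in 34.6% of all windows, and both motifs in 4 of the 12 and in 5.9% of all. MKI67 held TTTGAA at -47 and -29, counted from the start to the leftmost base of the match, and CCAAT on the other strand at -98 and -24. TOP2A held 4 CCAAT matches and NCAPD2 also 4. NCAPG held a single TTTGAA at -35 and no CCAAT, and NCAPG2 held its TTTGAA 35 bases after the start, outside the stretch printed above. Of the genes not printed, NCAPD3, which stayed near its control in SUM159, held TTTGAA at -3 and CCAAT at -110 and -45 in the same window. NCAPH, which lay lower under NIF there, held CCAAT at -112 and no TTTGAA. Whether the motifs go with the response to NIF was not tested. A match of these letters is a description of the sequence and not a measured binding site. The condensin I genes NCAPD2 and NCAPG and the condensin II gene NCAPD3 overlap other annotated genes (SCARNA10 and GAPDH-DT, LCORL, and JAM3 and VPS26B among them), as do SMC2, SMC4 and NCAPH2, and it is not given whether the reads were counted by strand.

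Per kb of transcript, TOP2A was the most abundant of the 10 in all 8 groups, from 53.2 ± 5.5 CPM per kb (SD, n = 3) in SW620 ALDHbr NIF to 96.8 ± 4.8 in SUM159 ALDHbr DMSO libraries. NCAPH was the least abundant in all 8, from 9.94 to 14.5 CPM per kb on average. The condensin core partners stood apart: SMC4 averaged 35.5 to 83.7 CPM per kb and SMC2 13.0 to 20.7, and the count of SMC4 was 2.13 to 3.69 times that of SMC2 in every library. In the SUM159 groups SMC4 followed TOP2A in that order and NCAPD2 came next, whereas in the SW620 groups NCAPD2 followed TOP2A and SMC4 stood at rank 4 or 5.

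**Figure D1:**
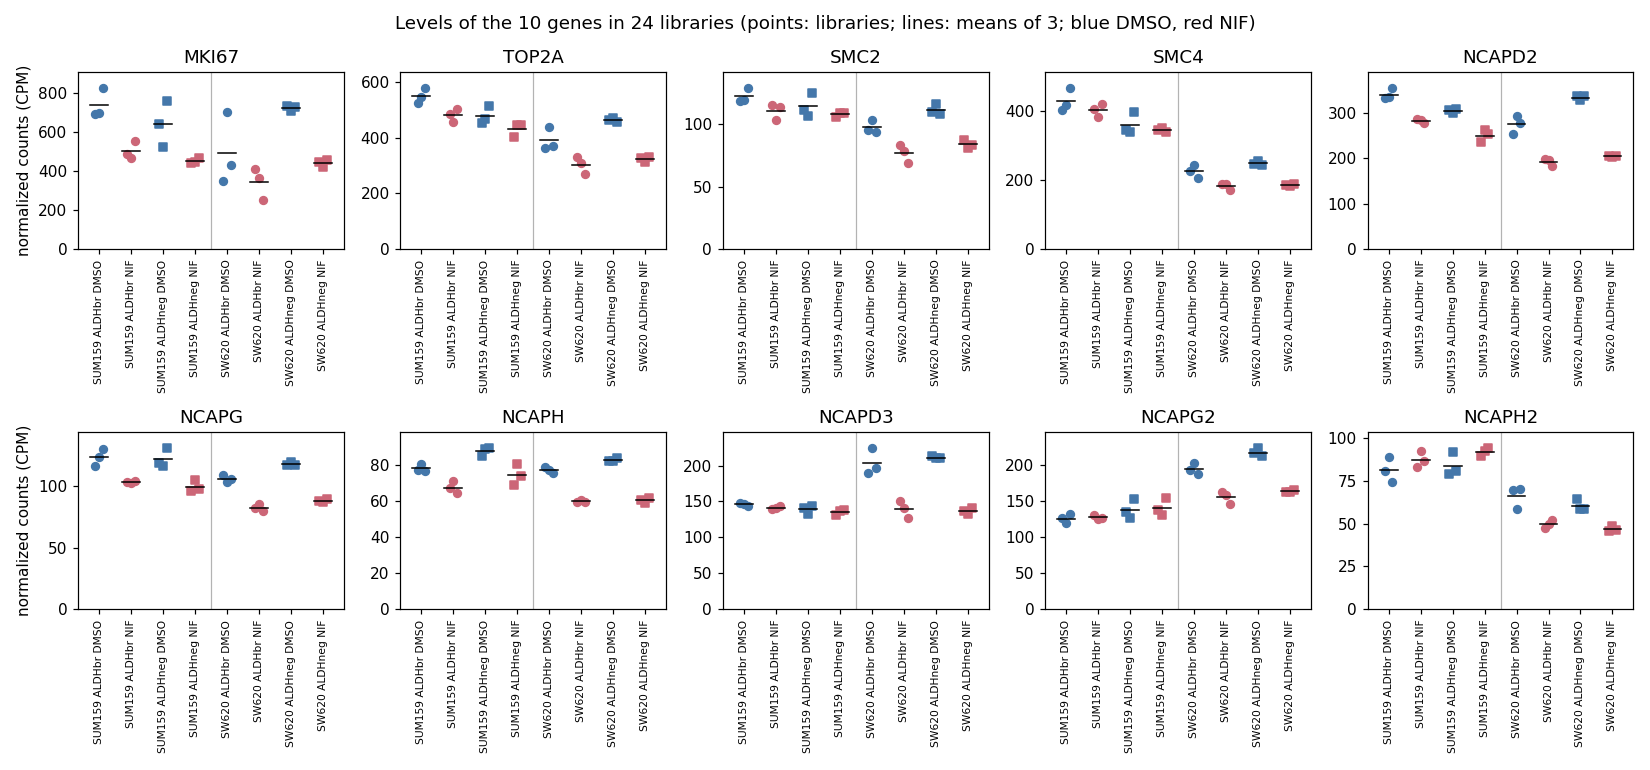
CPM (y axis, from 0) of each of the 10 genes in 24 libraries, grouped along the x axis by line, population and treatment. Points are libraries and horizontal lines are means of 3. All 10 genes lie lower under NIF in SW620 ALDHneg cells, and MKI67 spreads from 346 to 703 CPM within the SW620 ALDHbr DMSO group.

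All 10 genes were called lower under NIF in SW620 ALDHneg and 9 of 10 in SW620 ALDHbr cells. In SW620 ALDHneg cells all 10 genes passed the test in the lower direction, where 22.7% of 13953 tested genes did, with a median log2 fold change of -0.44 against -0.01 over all genes tested. Their ranges under NIF and DMSO did not overlap in 10 of 10 cases, as in 63.5% of all genes. Library-size scaling gave the same 10 calls, though it moved the share of calls in the higher direction over all genes from 49.5% to 39.4%. In bulk RNA, fewer cycling cells and less RNA of these genes per cell cannot be told apart.

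MKI67 averaged 722 ± 15.7 CPM under DMSO and 442 ± 18.5 CPM under NIF (SD, n = 3), a log2 fold change of -0.71 ± 0.21 (SE, adjusted p = 0.0123, edgeR quasi-likelihood test with Benjamini-Hochberg adjustment). NCAPD2, a HEAT-repeat subunit of condensin I, stood at 336, 328 and 336 CPM under DMSO and at 205, 202 and 204 CPM under NIF. Its groups were far apart, with a log2 fold change of -0.71 ± 0.06 (adjusted p = 1.74e-07). NCAPD3, its condensin II counterpart, stood at 213, 210 and 210 CPM under DMSO and at 137, 132 and 140 CPM under NIF. It fell by 0.63 on the log2 scale (SE 0.07, adjusted p = 5.68e-06). TOP2A stood at 466, 473 and 458 CPM against 327, 312 and 332 CPM, a log2 fold change of -0.52 ± 0.08 (adjusted p = 9.73e-05). The other 6 genes changed by -0.37 to -0.45, with NCAPH2, the condensin II kleisin, the least affected (adjusted p = 0.000827).

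Of the 10 genes, 9 passed the test as lower after NIF in the SW620 ALDHbr population, where 21.9% of the 13953 tested genes did, with a median of -0.37 against -0.01 over all genes tested. The 9 genes also had separate ranges, as did 45% of all genes. NCAPD3 changed most, from 190, 224 and 196 CPM to 151, 141 and 127 CPM, a log2 fold change of -0.54 ± 0.07 (adjusted p = 2.82e-05). NCAPD2 followed, from 254, 293 and 278 CPM to 198, 195 and 182 CPM (-0.52 ± 0.06, adjusted p = 4.57e-06). TOP2A stood at 365, 441 and 372 CPM under DMSO and at 330, 311 and 269 CPM under NIF (-0.37 ± 0.08, adjusted p = 0.00174). SMC4 had the smallest change of the 10 (-0.31 ± 0.06, adjusted p = 0.00132).

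MKI67 was the exception in SW620 ALDHbr cells. Its log2 fold change of -0.53 was close to that of NCAPD3, but its SE was 0.21 and its adjusted p 0.0524, and the NIF range of 249 to 410 CPM lay across the DMSO range of 346 to 703 CPM. Single libraries decided its value. Without the first DMSO library it was -0.73 (adjusted p = 0.00762) and without the second -0.17 (adjusted p = 0.333), and without the first NIF library it was -0.68 (adjusted p = 0.031) and without the third -0.35 (adjusted p = 0.174). Leaving out both the second DMSO and the third NIF library gave -0.0034 (adjusted p = 0.971), while the other 9 genes stayed lower, at -0.20 to -0.52. These libraries held the highest MKI67 under DMSO and the lowest under NIF. Those left had a length rho of -0.490 and -0.418 under DMSO and 0.518 and 0.174 under NIF. That fit therefore cannot set the drug apart from the length trend. With the trends removed, MKI67 in the libraries left stood at 8.81 and 9.05 log2 CPM under DMSO and 8.58 and 8.51 under NIF. Removing the length and GC trends with all libraries kept gave -0.62 (adjusted p = 6.36e-05). MKI67 also passed in a fit of all 24 libraries (adjusted p = 0.0239) and without a filter (adjusted p = 0.02). The part of the length trend in the MKI67 result beyond these fits was not tested.

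The test of the difference in NIF effect between SW620 populations called 0 of the 10 genes by edgeR, beside 0.00717% (1 gene) of 13953 tested. At an unadjusted p under 0.05 it gave 1 of the 10, NCAPD2, beside 5.53% of all genes. DESeq2 also called 0 of the 10. The estimate was on the side of a smaller fall in ALDHbr cells for 9 of 10 genes, with NCAPD2 the largest (0.19, 95% interval 0.02 to 0.36) and MKI67 the least certain (0.18, 95% interval -0.45 to 0.81). Without the same 2 libraries 6 genes were called (MKI67, TOP2A, SMC4, NCAPD2, NCAPD3 and NCAPG2), each with a smaller fall in ALDHbr cells, beside 23.2% of 14100 genes tested. In that fit the length trend differs between the ALDHbr DMSO and ALDHbr NIF libraries left. It therefore cannot set a smaller fall apart from that trend. Under removal of the trends 0 were called.

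**Figure D2:**
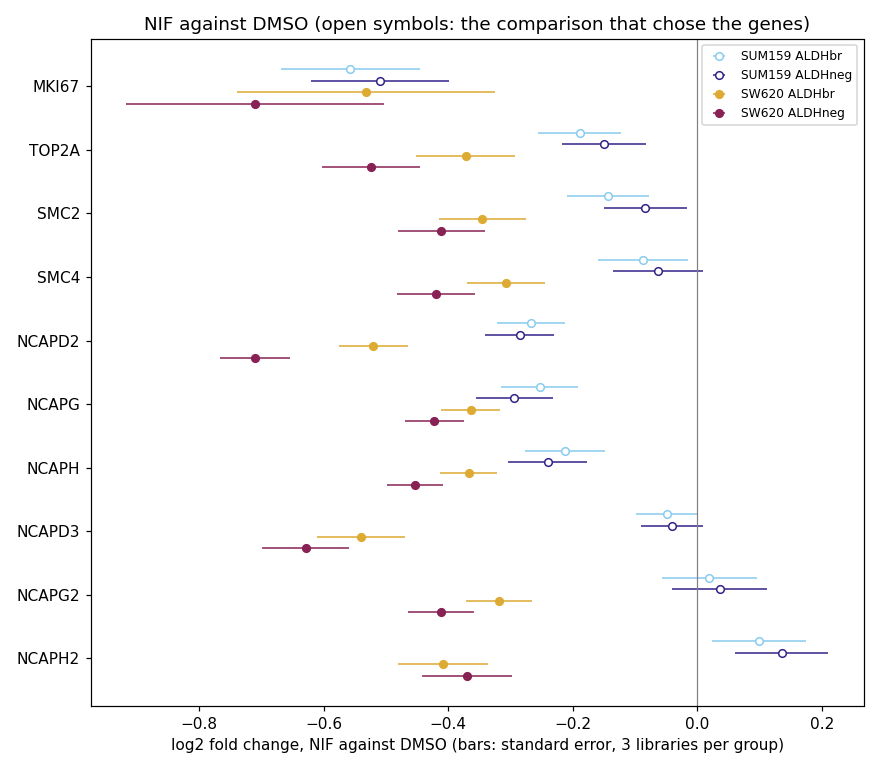
Log2 fold change of NIF against DMSO (x axis) for each of the 10 genes (y axis), with standard errors from fits of 3 libraries per group. Open symbols are the SUM159 comparisons, which chose the set and were not tested. In SW620 all 20 estimates lie below 0, from -0.31 to -0.71, whereas in SUM159 the condensin II genes NCAPD3, NCAPG2 and NCAPH2 lie between -0.05 and 0.14.

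In SUM159 cells, where the set was selected on MKI67, the members split by complex. These are descriptions only. MKI67 stood at 693, 699 and 824 CPM in ALDHbr DMSO and at 484, 467 and 555 CPM in ALDHbr NIF libraries, a log2 fold change of -0.56 ± 0.11. In ALDHneg cells it stood at 640, 524 and 758 CPM under DMSO and at 439, 444 and 467 CPM under NIF (-0.51 ± 0.11). The groups did not overlap in either population. After removal of the length and GC trends the values were -0.49 and -0.50.

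The condensin I genes lay lower under NIF, and the condensin II genes had smaller differences of either sign. NCAPD2 stood at 332, 334 and 355 CPM in ALDHbr DMSO and at 286, 285 and 276 CPM in ALDHbr NIF libraries (-0.27 ± 0.05). NCAPG and NCAPH had log2 fold changes of -0.25 and -0.21 in ALDHbr and of -0.29 and -0.24 in ALDHneg cells. All 3 had separate ranges in both populations. NCAPD3 stood at 148, 147 and 143 CPM against 139, 141 and 143 CPM in ALDHbr cells, a log2 fold change of -0.05 ± 0.05. NCAPG2 had 0.02 and 0.04, and NCAPH2 0.10 and 0.14, in ALDHbr and ALDHneg cells. Neither gene had separate ranges in either population, and the SEs were 0.07 for NCAPH2 and 0.08 for NCAPG2 in both. NCAPH2 was higher under NIF in 6 of 6 same-numbered pairs, and NCAPG2 in 2 of 3 ALDHbr and 3 of 3 ALDHneg pairs. In ALDHneg cells the NCAPH2 pairs ran from 92.1 against 92.7 CPM to 80.8 against 94.1 CPM (DMSO against NIF). How often other genes lie on one side in every pair was not tested, so these counts show no rise. The shared core lay between, with SMC2 at -0.14 and -0.08 and SMC4 at -0.09 and -0.06, and TOP2A had -0.19 and -0.15.

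In all, 6 of the 10 genes in ALDHbr and 5 in ALDHneg SUM159 cells had ranges that did not overlap, each lower under NIF. Of the 14953 tested genes, 23.2% and 19.7% had separate ranges in either direction. MKI67, whose fall here chose the set, is counted in both populations. The counts are therefore not independent of that choice and are no result beside those shares. The difference between populations ran from -0.06 to 0.04 on the log2 scale over the 10 genes, with SEs of 0.07 to 0.16. Other lists, described by their medians, lay as follows in ALDHbr and ALDHneg SUM159 cells: 50 other G2/M genes of Seurat at -0.20 and -0.17, 43 S phase genes at 0.06 and 0.01, and all genes tested at -0.0029 and 0.0033.

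Ratios of counts in the same library cancel scaling. They use the same genes and libraries again and are not separate support for the split. The condensin I sum is mostly NCAPD2, which averaged 340 CPM in SUM159 ALDHbr DMSO libraries, against 124 for NCAPG and 78.2 for NCAPH. In SUM159 the summed counts of the 3 condensin II genes were 0.622 to 0.711 times those of the 3 condensin I genes in the 6 DMSO libraries and 0.773 to 0.909 times in the 6 NIF libraries, without overlap. In SW620 the ratio was 0.987 to 1.02 in ALDHbr DMSO and 1.01 to 1.06 in ALDHbr NIF libraries, which overlap, and 0.894 to 0.927 in ALDHneg DMSO and 0.974 to 0.988 in ALDHneg NIF libraries. The ratio of MKI67 to TOP2A counts went from 1.12 to 1.47 under DMSO to 0.992 to 1.102 under NIF in SUM159. In SW620 ALDHneg libraries it went from 1.49 to 1.59 to between 1.35 and 1.37, and in the ALDHbr libraries it ranged from 0.947 to 1.59 under DMSO alone. These ratios are not adjusted for length and do not give stoichiometry. Scaling cancels in them, but a library's trend with transcript length does not. The 3 SW620 ALDHbr DMSO libraries had MKI67 to TOP2A ratios of 0.947, 1.59 and 1.16 at a length rho of -0.490, 0.595 and -0.418. In SUM159 this ratio also holds MKI67, by which the set was chosen. The part of the length trend in the ratios, and how often ratios of other genes separate in this way, were not tested.

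**Figure D3:**
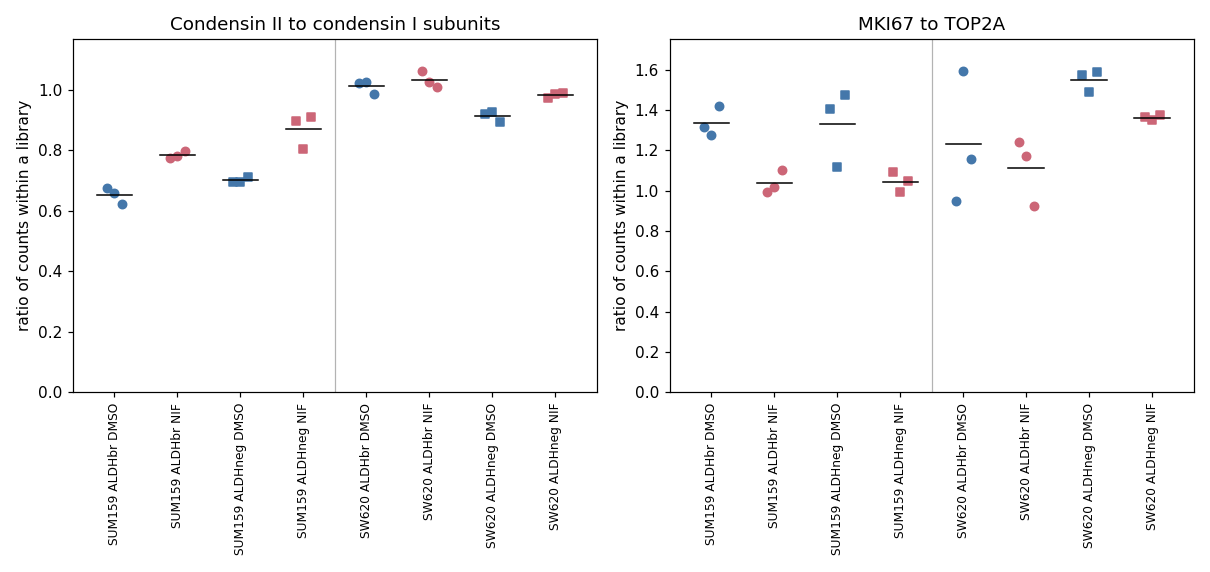
Ratios of raw counts within a library (y axes, from 0) for the 3 condensin II over the 3 condensin I genes and for MKI67 over TOP2A, by group along the x axis. Points are libraries and lines are means of 3. The condensin ratio is higher in all 6 SUM159 NIF libraries (0.773 to 0.909) than in all 6 SUM159 DMSO libraries (0.622 to 0.711).

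Between the sorted populations few members passed the test without a replicate block. Those that did were higher in ALDHbr cells in SUM159 and lower in SW620. Under DMSO, SUM159 ALDHbr cells had more TOP2A, SMC4 and NCAPD2 than ALDHneg cells, 3 of 10 genes where 23% of 14953 were called. SMC4 stood at 402, 416 and 466 CPM in ALDHbr and at 346, 338 and 397 CPM in ALDHneg libraries, without overlap (log2 fold change 0.25 ± 0.07, adjusted p = 0.0205). TOP2A and NCAPD2 differed by 0.20 ± 0.07 and 0.16 ± 0.05 (adjusted p = 0.0423 and 0.0472). Under NIF, SMC4 (0.23 ± 0.07, adjusted p = 0.0354) and NCAPD2 (0.18 ± 0.05, adjusted p = 0.0303) were higher, 2 of 10 genes where 21.9% were called. Such shares are near the background.

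Same-numbered SUM159 libraries were paired, and adding the replicate block gave 5 of 10 under DMSO (36% of all genes) and 5 of 10 under NIF (35.2%). Under DMSO, MKI67 (0.21, adjusted p = 0.00693) and NCAPH (-0.17, adjusted p = 0.0118) were added to TOP2A, SMC4 and NCAPD2. Under NIF, TOP2A (0.16, adjusted p = 0.00749), NCAPH (-0.14, adjusted p = 0.0392) and NCAPG2 (-0.14, adjusted p = 0.0331) were added. With the block, NCAPH under both treatments and NCAPG2 under NIF alone were thus called lower in SUM159 ALDHbr cells. Without it neither was called by edgeR under DMSO or NIF (NCAPH adjusted p = 0.0741 and 0.141, NCAPG2 0.256 and 0.196). The SW620 estimates of NCAPH and NCAPG2 under DMSO lay on the same side (-0.10 and -0.16, not called). With the trends of length and GC content taken out, TOP2A and NCAPD2 were no longer called under DMSO (adjusted p = 0.101 and 0.0806), and NCAPH was called lower (-0.23, adjusted p = 0.0335). Without the third ALDHbr DMSO, the first ALDHneg DMSO or the second ALDHneg DMSO library 0 of 10 were called under DMSO. Library-size scaling left none of these calls either, and NCAPH alone was called, lower under DMSO (-0.20, adjusted p = 0.0181) and under NIF (-0.17, adjusted p = 0.0364).

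In SW620 under DMSO the called genes were lower in ALDHbr cells. NCAPD2 stood at 254, 293 and 278 CPM in ALDHbr and at 336, 328 and 336 CPM in ALDHneg libraries (log2 fold change -0.28 ± 0.06, adjusted p = 0.00599), and NCAPG at 109, 103 and 106 against 118, 120 and 118 CPM (-0.16 ± 0.05, adjusted p = 0.0444). These were 2 of 10 genes called where 11.3% were. The ranges of 8 of the 10 genes did not overlap, all 8 lower in ALDHbr cells, where 28.3% of all genes had separate ranges. MKI67 was one of the 8, with a log2 fold change of -0.55 ± 0.21 (adjusted p = 0.0935). Under NIF 0 of 10 were called (0 at an unadjusted p under 0.05, and 0 by DESeq2), where 6.67% of all genes were, and 3 genes (MKI67, NCAPD2 and NCAPG) had separate ranges, where 30% of all genes had. Library-size scaling moved the share of those calls in the higher direction over all genes from 51.1% to 61.4%.

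These SW620 counts depended on the spread of the ALDHbr libraries. Without the second ALDHbr DMSO library 8 of 10 genes were called under DMSO (38.8% of 14147 genes), and after also leaving out the third ALDHbr NIF library 9 were (45.9% of 14100 genes), 8 lower and NCAPH2 higher (0.21, adjusted p = 0.00219). MKI67 was then at -0.90 (adjusted p = 9.3e-12). The ALDHbr DMSO libraries left had a length rho of -0.490 and -0.418, against -0.093 to 0.110 in ALDHneg DMSO libraries. These fits therefore cannot set the populations apart from the length trend. Removal of the length and GC trends gave 4 calls (16.4% of 13953 genes), with MKI67 (-0.34, adjusted p = 0.0261), NCAPD2 and NCAPG2 lower and NCAPD3 higher (0.12, adjusted p = 0.0242), which reversed the estimate of NCAPD3 (-0.05). NCAPG was then not called (adjusted p = 0.413). Under NIF the same settings gave 1 call each, MKI67 (-0.19, adjusted p = 0.041) without the 2 libraries, where 11.8% of genes were called, and NCAPD3 (0.16, adjusted p = 0.00554) with the trends removed, where 12.9% were. Beside the members, 18 of 50 other G2/M genes were called lower under DMSO with all libraries kept (5.86% of all genes). Of 43 S phase genes 7 were called higher (5.45% of all genes), and 0 of either list went the other way. Under NIF 0 of either list were called, where 6.67% of all genes were. The part of cell-cycle phase in the result was not tested.

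**Figure D4:**
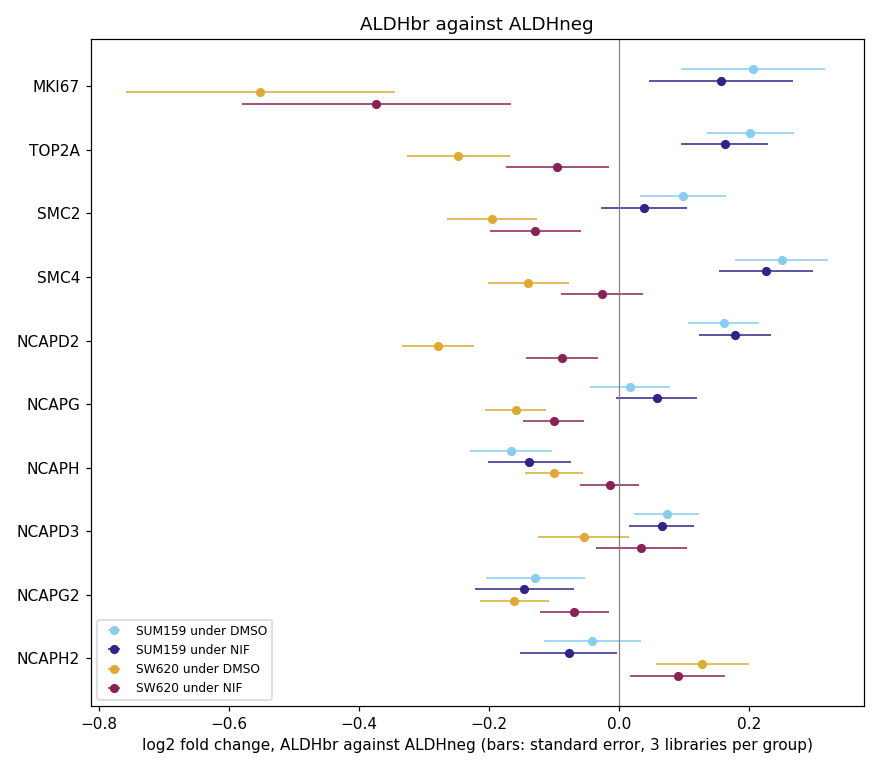
Log2 fold change of ALDHbr against ALDHneg cells (x axis) for each of the 10 genes (y axis) under DMSO and NIF in both lines, with standard errors from fits of 3 libraries per group. MKI67, TOP2A, SMC2, SMC4, NCAPD2 and NCAPG lie above 0 in SUM159 and below 0 in SW620.

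The difference between the lines in that population contrast was tested after these values had been seen. Under DMSO 5 of 10 genes were called, all lower in the SW620 contrast, where 19.1% of 16271 genes were called. The largest differences were those of MKI67 (-0.76 ± 0.25, adjusted p = 0.0377) and TOP2A (-0.45 ± 0.11, adjusted p = 0.00499), and NCAPD2 was the best supported (-0.44 ± 0.08, adjusted p = 0.000281). SMC4 differed by -0.39 ± 0.10 (adjusted p = 0.00703) and SMC2 by -0.29 ± 0.10 (adjusted p = 0.0373). The other 5 genes were not called, with estimates of -0.18 for NCAPG, 0.07 for NCAPH, -0.13 for NCAPD3, -0.03 for NCAPG2 and 0.17 for NCAPH2. With library-size scaling the calls of MKI67 (adjusted p = 0.0664) and SMC2 (adjusted p = 0.0884) were lost, and leaving out single libraries took the adjusted p of MKI67 to as much as 0.12. Without the second SW620 ALDHbr DMSO library 5 genes were called (27.7% of 16555 genes), with MKI67 at -1.10 (adjusted p = 0.000193). That fit keeps the length trend of the libraries left, whose rho was -0.490 and -0.418. Once the trends were removed SMC2 was lost (adjusted p = 0.509) and the other 4 stayed called, beside 19% of 16271 genes. The median difference over the 10 genes went from -0.23 to -0.05 in that fit. The sizes given above thus hold the length and GC trends, whose part was not tested.

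Between the lines, NCAPG2 and NCAPD3 were higher and SMC4 lower in SW620 in both populations. Under DMSO NCAPG2 was higher in SW620 than in SUM159 cells, at 187 to 203 against 119 to 132 CPM in ALDHbr libraries (log2 fold change 0.81 ± 0.07, adjusted p = 6.24e-11) and by 0.84 ± 0.07 in ALDHneg cells (adjusted p = 2.76e-11). These CPM were scaled within each line, while the fold changes come from the fit of both lines, so the values do not match exactly. NCAPD3 was higher by 0.66 ± 0.06 in ALDHbr and 0.78 ± 0.06 in ALDHneg cells (adjusted p = 7.34e-10 and 2.6e-11). SMC4, the shared core subunit, was lower in SW620, by -0.75 ± 0.07 and -0.36 ± 0.07 (adjusted p = 5.8e-10 and 5.17e-05). The third condensin II subunit, NCAPH2, did not share the direction of its partners: it was at -0.12 ± 0.08 in ALDHbr cells (adjusted p = 0.147) and was lower in ALDHneg cells (-0.29 ± 0.08, adjusted p = 0.0014).

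In all 8 of 10 genes differed between lines in ALDHbr cells (3 higher and 5 lower in SW620) and 6 of 10 in ALDHneg cells (4 higher and 2 lower), near the 81.3% and 81.2% of 16271 genes that did. Scaling mattered here: library-size scaling shifted the median of all genes by -0.15 and -0.17, and NCAPG in ALDHneg cells went from 0.14 (adjusted p = 0.025) to -0.033 (adjusted p = 0.586). The length and GC fit turned MKI67 in ALDHbr cells from -0.40 (adjusted p = 0.0424) to 0.21 (adjusted p = 0.0381). Without the second SW620 ALDHbr DMSO library MKI67 stood at -0.75 (adjusted p = 6.89e-05), and 8 genes were again called in ALDHbr cells (80.0% of 16555 genes). The libraries left both had a negative length rho, and that trend stays in this value. In the length and GC fit SMC2, NCAPD2 and NCAPG in ALDHbr cells also changed sign, while NCAPG2, NCAPD3 and SMC4 kept direction and call under every alternative run. Line differences cannot be told apart from differences in how the 2 lines were handled.

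Related genes of the SMC and topoisomerase families were tested under NIF in the same SW620 fit. All libraries and their length trends were kept for the related lists, partners and cell-cycle genes, and the alternative fits are not given for them. Of 17 cohesin genes, which hold sister chromatids together, 8 were lower in ALDHbr and 9 in ALDHneg cells and 0 were higher, where 21.9% and 22.7% of all genes were lower. PTTG1, the securin that holds separase in check, was the lowest of them at -0.63 ± 0.11 and -0.72 ± 0.11 (adjusted p = 0.000399 and 0.00012). The called cohesin genes closest to 0 were SMC3 in ALDHbr (-0.17, adjusted p = 0.0119) and PDS5B in ALDHneg cells (-0.21, adjusted p = 0.0259). Cohesin medians were -0.17 and -0.21, against -0.37 and -0.44 for the 10 members.

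Of 9 genes of the SMC5/6 complex, which acts in DNA repair, 3 were lower and 1 higher in ALDHbr cells and 2 lower and 1 higher in ALDHneg cells, with medians of -0.01 and 0.14 and counts of lower genes near those shares of all genes. The higher gene was EID3 in both populations (0.91 ± 0.33 and 1.59 ± 0.37, adjusted p = 0.0383 and 0.00298), and the lowest were NSMCE4A in ALDHbr (-0.43, adjusted p = 0.000538) and SLF1 in ALDHneg cells (-0.35, adjusted p = 0.00219). Of 5 other topoisomerases, TOP2B, the topoisomerase II that non-dividing cells also make, was lower in both (-0.38 ± 0.06 and -0.42 ± 0.06, adjusted p = 0.000118 and 3.25e-05) and TOP1MT passed in ALDHbr cells (-0.18, adjusted p = 0.0485) but not in ALDHneg cells (-0.12, adjusted p = 0.188). TOP1, TOP3A and TOP3B were not called in either.

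Of 14 partners that phosphorylate, recruit or bind condensins and Ki-67, 9 were lower in each SW620 population and 0 higher. Over all genes 21.9% were lower in ALDHbr and 22.7% in ALDHneg cells. CCNB1, the mitotic cyclin, was the lowest in both (-0.57 ± 0.06 in ALDHbr and -0.83 ± 0.06 in ALDHneg cells, adjusted p = 4.57e-06 and 1.07e-07). The called partners closest to 0 were AKAP8, a condensin-binding anchoring protein, in ALDHbr (-0.21, adjusted p = 0.00391) and CDK1, the mitotic kinase, in ALDHneg cells (-0.15, adjusted p = 0.048). Among 50 other G2/M genes 42 were lower and 1 higher in ALDHbr and 43 lower in ALDHneg cells. Among 43 S phase genes 35 were lower in ALDHbr, and 28 lower and 1 higher in ALDHneg cells. For both lists the shares of all genes called lower are those given for the partners. The shares called higher were 21.4% in ALDHbr and 22.3% in ALDHneg cells. The cell-cycle lists thus moved with the members in SW620, and their part in the result was not tested.

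Across the 12 libraries of a line, described by Pearson's r of log2 CPM, MKI67 ran with TOP2A (0.85 in SUM159 and 0.92 in SW620) and with NCAPG (0.93 and 0.76). With NCAPH2 its r was -0.78 in SUM159 and 0.27 in SW620, and with NCAPG2 -0.05 and 0.85. These libraries share treatment and population groups and the length trend. Of 12780 genes tested in both lines, the 5 outside the set most like MKI67 by the lower of its r values in the 2 lines were CENPF, IPO9, CNOT6, TPR and KIF14, at 0.93 to 0.98, whose transcripts are 6219 to 11416 bases long. After removal of the trends the genes most like it included NUSAP1, CENPF, KIF20A and SRGAP2, so that CENPF, a kinetochore protein, was named both ways. Most like TOP2A were KNL1, SMC1A, PAPOLA, CCDC6 and TOP2B, and after removal of the trends KIFC1, KNL1, HMGB3, KPNA2 and CCNB1, with KNL1, a kinetochore scaffold, named both ways.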

How the data were processed

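RNA-seq was done on stranded total RNA from 24 libraries (SUM159 and SW620, ALDHbr and ALDHneg, NIF or DMSO for 30 h, 3 each). The authors deposited raw counts per gene for 28307 genes, 4579 without any count. The submitters' processing notes name FastQC, STAR and GRCh38. The counting tool, its strand setting and the annotation are not given in the sources used here. Totals ran from 30253187 to 43127948 counts. Within a group no library repeated another (chi-square per gene 1.97 to 46.1). Libraries of different groups were not compared in this way.

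The deposited counts were fitted with edgeR 4.0.16 (R 4.3.3). Each line was fitted apart (12 libraries, 4 groups; 14953 genes in SUM159 and 13953 in SW620 passed filterByExpr, all 10 members among them), and the lines were compared in a fit of 24 libraries (16271 genes). TMM scaling, quasi-likelihood tests and Benjamini-Hochberg adjustment over all genes tested were used, with a threshold of 0.05. The SE is the log2 fold change over the square root of F. Log2 CPM used a prior count of 2.

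The members and lists were chosen with earlier results of these data known. Beside the 10 members, named genes are ALDH1A1 and ALDH1A3 for the sort, the called gene with the highest and the lowest log2 fold change of each related list in the SW620 NIF comparisons, and the 5 genes most like MKI67 and TOP2A, of which 1 is not reported here. Genes named as not called, or as overlapping a member, were added after their values were seen. Seurat 5.3.0 supplied the G2/M and S phase lists, from which members were taken out. NIF against DMSO in SUM159 chose the set and was not tested.

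Same-numbered SUM159 libraries deviated together from their group means (r 0.125 to 0.451, over 0.1 in 18 of 18 pairs), so the numbers were taken to pair them, as 3 independent experiments would. In SW620 this held in 1 of 18 pairs.

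Alternatives were scaling by library size or by RLE, no filter, at least 10 counts in every library, DESeq2 1.42.0, other sets of libraries, a replicate block and each library left out. Removal of each library's trend with transcript length and GC content (lowess, span 0.3, GENCODE transcripts) and leaving out 2 SW620 ALDHbr libraries were added after the data had been seen. The fits were tested on simulated counts without a length or GC trend and without paired replicates, so that test does not cover these features. Promoter sequences and positions are from RefSeq (GRCh38.p14), where 9 of the 10 members matched, all but NCAPH2.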

Additional observations from a re-analysis of the deposited data

Results flagged for a closer look

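The difference between lines in ALDHbr against ALDHneg cells under DMSO, added after the data had been seen, was called by the edgeR test of the difference itself for 5 of the 10 genes. The log2 differences (SW620 contrast minus SUM159 contrast) were -0.76 for MKI67, -0.45 for TOP2A, -0.29 for SMC2, -0.39 for SMC4 and -0.44 for NCAPD2. Each of these genes had an estimate above 0 in SUM159 and below 0 in SW620. With library-size scaling the calls of MKI67 (adjusted p = 0.0664) and SMC2 (adjusted p = 0.0884) were lost and the other 3 remained. With the length and GC trends removed 4 genes stayed called, without SMC2. The median difference over the 10 genes then went from -0.23 to -0.05, so the sizes above hold those trends.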

How the results depend on the processing

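The 9 calls in SW620 ALDHbr and the 10 in SW620 ALDHneg cells under NIF kept their direction and their calls under every alternative, with counts of 9 to 10 and of 10 when single libraries were left out. Where a library was left out its group held 2 libraries, which limits these fits. Without the second SW620 ALDHbr DMSO library those left had a length rho of -0.490 and -0.418. Without the third SW620 ALDHbr NIF library those left had 0.518 and 0.174. Fits without these libraries therefore keep a length trend. The other counts were less stable, and the causes were not tested unless stated.

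For ALDHbr against ALDHneg in SUM159, the 3 calls under DMSO were 1 with library-size scaling, 0 in a fit of only the groups compared (6 libraries), 5 with the replicate block and 0 to 3 with single libraries left out (1 without the second ALDHbr DMSO library, 0 without the third ALDHbr or the first or second ALDHneg DMSO library). The 2 calls under NIF were 1, 1, 5 and 0 to 1 in the same order (1 without the second library of either population, 0 without any of the others). In SW620 the 2 calls under DMSO were 4 by DESeq2, 1 in a fit of only the groups compared, 1 with the replicate block, 4 with length and GC trends removed, 9 without the second ALDHbr DMSO and the third ALDHbr NIF library, and 1 to 8 with single libraries left out (8 without the second ALDHbr DMSO library, 1 without any of the other 5). The SW620 replicate numbers did not pair the libraries by the correlation check. The 0 calls under NIF there were 1 with the trends removed and 1 without the same 2 libraries, and the 0 calls for the difference between populations in NIF effect were 6 without them.

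The 5 calls for the difference between lines were 3 with library-size scaling, 3 in a fit of only the groups compared, and 3 to 6 with single libraries left out (3 without the third ALDHbr DMSO or the first or second ALDHneg DMSO library of SUM159, or without the first or the third ALDHbr DMSO or the first or second ALDHneg DMSO library of SW620). The 8 calls of SW620 against SUM159 in ALDHbr cells were 4 in a fit of only the groups compared and 5 to 8 with single libraries left out (5 without the first or the third SW620 library). The median log2 fold change of the 10 genes under NIF in SUM159 ALDHbr cells, -0.17, was -0.11 with trends removed and -0.12 to -0.19 with single libraries left out, at -0.13 without the third DMSO and -0.12 without the second NIF library. In ALDHneg cells it was -0.12, and -0.057 to -0.15 with single libraries left out, at -0.057 without the third DMSO library.

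Reversed estimates with the length and GC trends removed were, for SW620 against SUM159 in ALDHbr cells, MKI67 (0.21), NCAPD2 (0.021), NCAPG (0.12) and SMC2 (0.095), and, for ALDHbr against ALDHneg in SW620 under DMSO, NCAPD3 (0.12). With library-size scaling NCAPG in ALDHneg cells between lines was reversed (-0.033). The replicate block changed no other count by more than 1.5 times, and added MKI67 and SMC2 to the calls between lines in ALDHneg cells (8 for 6).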
